A study of Mus musculus with 3 samples.

Results

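The genes described here are 10 members of the BMP, activin and GDF signalling network, taken by symbol from the 32285 genes listed in each of 3 single-cell RNA-seq libraries of the mouse femoral artery. They comprise the secreted ligands Bmp2, Bmp4, Bmp6, Inhba, Gdf10 and Gdf15, the receptor Bmpr2, and the extracellular inhibitors and related proteins Fst, Fstl1 and Grem1. One library, Sham, came from sham-operated arteries, and the other two, D2 and D7, came from arteries taken 2 and 7 days after a wire injury. All mice were wild-type (WT) males of 8 weeks, and per the labels no genotype or drug set the groups apart. Live single cells of 6 mice were sorted and pooled into each library, so every group was 1 library and no difference between groups could be tested. The labels do not say how long after the sham operation the Sham arteries were taken.

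BMPs, activins and GDFs are secreted dimers of the TGF-beta superfamily that assemble type I and type II receptor kinases on the receiving cell. BMP receptors phosphorylate Smad1, Smad5 and Smad9, activin receptors phosphorylate Smad2 and Smad3, and secreted antagonists hold ligands away from their receptors. In blood vessels the pathway is known for endothelial quiescence and the contractile state of smooth muscle, and human carriers of BMPR2 mutations are prone to pulmonary arterial hypertension.

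Filtering and doublet removal left 7375 Sham, 10996 D2 and 10895 D7 cells. Their median depth was 4098, 6623.5 and 6743 UMIs (captured transcripts). Cells were clustered over all libraries and 27 of 31 clusters were named from marker genes, written "-like" because no deposited annotation was used. Few stromal cells were captured at D2. Fibroblast-like cells numbered 2037, 87 and 2909 in Sham, D2 and D7, smooth muscle-like cells 150, 16 and 303, and endothelial-like cells 474, 87 and 388. Levels are UMIs summed per class and library and scaled to CPM (counts scaled to a common total), with 95% exact Poisson intervals, and ratios carry exact conditional binomial intervals. The intervals cover counting error only and hold nothing of the variation among mice or operations. Comparisons were limited to classes with 50 or more cells in each library of the pair, and a gene stood apart where the higher library had at least 50 CPM and 20 UMIs and the ratio of (CPM + 1) was at least 2.

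Promoter sequences are shown for Bmp6, the ligand that stood apart in both endothelial classes, and for Inhba and Gdf15, the ligands with their highest immune-cell levels after injury. Each holds 250 bases before and 50 after the RefSeq start site on GRCm38.p6, written 5′ to 3′ on the gene's own strand. Capitals mark a match to the GC box motif in Bmp6 (chr13:38345466-38345765, plus strand) and to the TATA box motif in Inhba (chr13:16011601-16011900, plus strand), and Gdf15 (chr8:70632407-70632706, minus strand) held no match.
Bmp6: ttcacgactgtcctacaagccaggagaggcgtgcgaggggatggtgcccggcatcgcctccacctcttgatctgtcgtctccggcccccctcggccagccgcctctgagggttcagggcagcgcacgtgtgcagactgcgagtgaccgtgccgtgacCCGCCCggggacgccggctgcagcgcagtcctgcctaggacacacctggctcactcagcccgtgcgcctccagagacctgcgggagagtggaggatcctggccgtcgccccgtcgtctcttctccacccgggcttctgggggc
Inhba: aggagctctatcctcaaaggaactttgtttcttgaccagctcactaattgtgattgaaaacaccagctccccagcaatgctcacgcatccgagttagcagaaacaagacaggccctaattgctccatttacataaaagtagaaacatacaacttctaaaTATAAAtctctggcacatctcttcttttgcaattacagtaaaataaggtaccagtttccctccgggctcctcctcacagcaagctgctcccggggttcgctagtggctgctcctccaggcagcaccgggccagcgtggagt
Gdf15: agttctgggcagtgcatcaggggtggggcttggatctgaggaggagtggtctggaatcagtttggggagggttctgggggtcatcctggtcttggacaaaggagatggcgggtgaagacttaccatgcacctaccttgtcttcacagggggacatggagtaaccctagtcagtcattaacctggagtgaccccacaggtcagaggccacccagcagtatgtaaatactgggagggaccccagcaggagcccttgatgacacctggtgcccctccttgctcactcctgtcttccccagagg

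Both strands were searched for 6 motifs. The Bmp6 GC box (GGGCGG, on the reverse strand) began 93 bases before the start site, in a window with 27 CG dinucleotides, and 35.7% of 32851 promoters held this motif. The Inhba match to the TATA box motif (TATAAA) began 91 bases before the start site, in a window with 7 CG dinucleotides. Of all promoters 13.6% held this motif. These are matches of letters, and whether they act as such elements was not tested. The Gdf15 window held 1 CG dinucleotide, against a median of 7 over all promoters. None of these 3 windows matched the AP-1 site (TGANTCA), the ATF4 site (TGATGNAA), the cAMP response element (TGACGTCA) or the GC-rich Smad site (GGCGCC), which were held by 7.81%, 3.97%, 1.79% and 11.9% of promoters. Of the 10 genes, 8 had an entry in the promoter table, and Bmp2 and Fst had none.

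Most of the genes were carried mainly by 1 or 2 cell classes, and fibroblast-like cells carried ligands, receptor and inhibitors alike. In Sham arteries endothelial-like cells held 51.2% of all Bmp6 UMIs and fibroblast-like cells 39.7%. Fibroblast-like cells held 81.5% of Fst, 87.5% of Fstl1, 71.5% of Gdf10, 53.8% of Bmpr2 and 49.9% of Bmp4, and smooth muscle-like cells held 57.1% of Inhba. Monocyte/macrophage-like cells held 72.7% of Gdf15 in Sham, and Bmp2 was split between fibroblast-like cells (52.8%) and monocyte/macrophage-like cells (29.5%). These shares depend on the number of cells captured as well as on the level per class. They leave out unnamed cluster 3, which held 1770 shallow Sham cells and had all 12 fibroblast markers detected. With cluster 3 counted as fibroblast, the class held 83.2% of Fst, 93.9% of Fstl1, 97.2% of Gdf10, 55.9% of Bmpr2 and 57.8% of Bmp4 in Sham. Bmpr2 was detected in every named class that held Sham cells, and Grem1 had 24 UMIs in all libraries together.

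**Figure D1:**
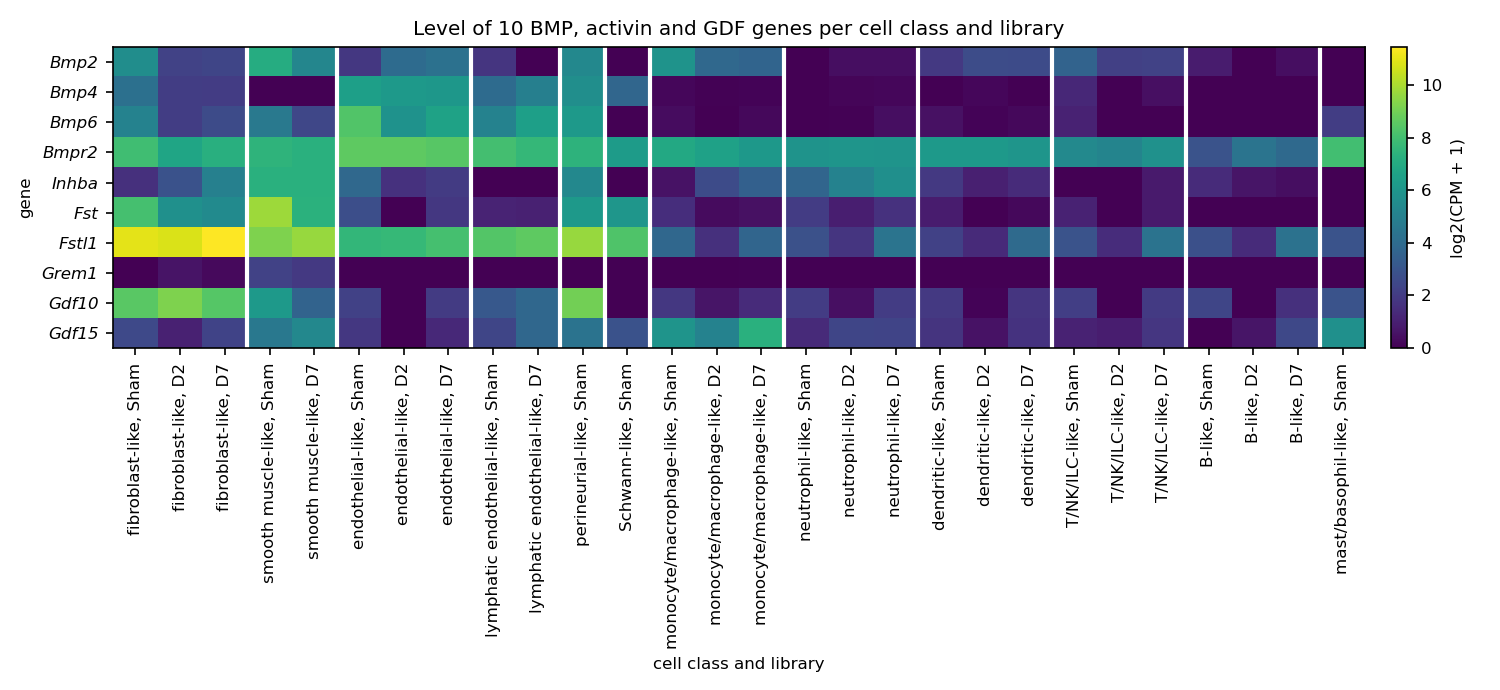
Level of each of the 10 genes (rows) in each cell class and library with at least 50 cells (columns, grouped by class), as log2(CPM + 1) on the colour scale. Fstl1, Gdf10 and Fst lie in the stromal columns at the left, Bmp4 and Bmp6 in the endothelial columns, Gdf15 in the monocyte/macrophage-like columns, and Bmpr2 runs across all columns.

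Most of the ratios that stood apart were lower after injury. For D2 over Sham 7 classes could be compared, and 13 of 70 pairs of a class and a gene passed the minimum level. Of these 0 were higher and 4 lower, 30.8% of those that passed, against 17.3% of all genes that passed in the same classes (9.1% higher and 8.18% lower). For D7 over Sham 9 classes were compared, and of 24 pairs that passed 3 were higher and 6 lower, 37.5%, against 13.6% of all genes (7.09% higher and 6.5% lower). For D7 over D2, 1 of 14 pairs was higher and 0 lower, 7.14%, against 3.65% of all genes (2.2% higher and 1.45% lower). The pairs of one class or gene are not independent, and these shares describe 3 libraries.

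**Figure D2:**
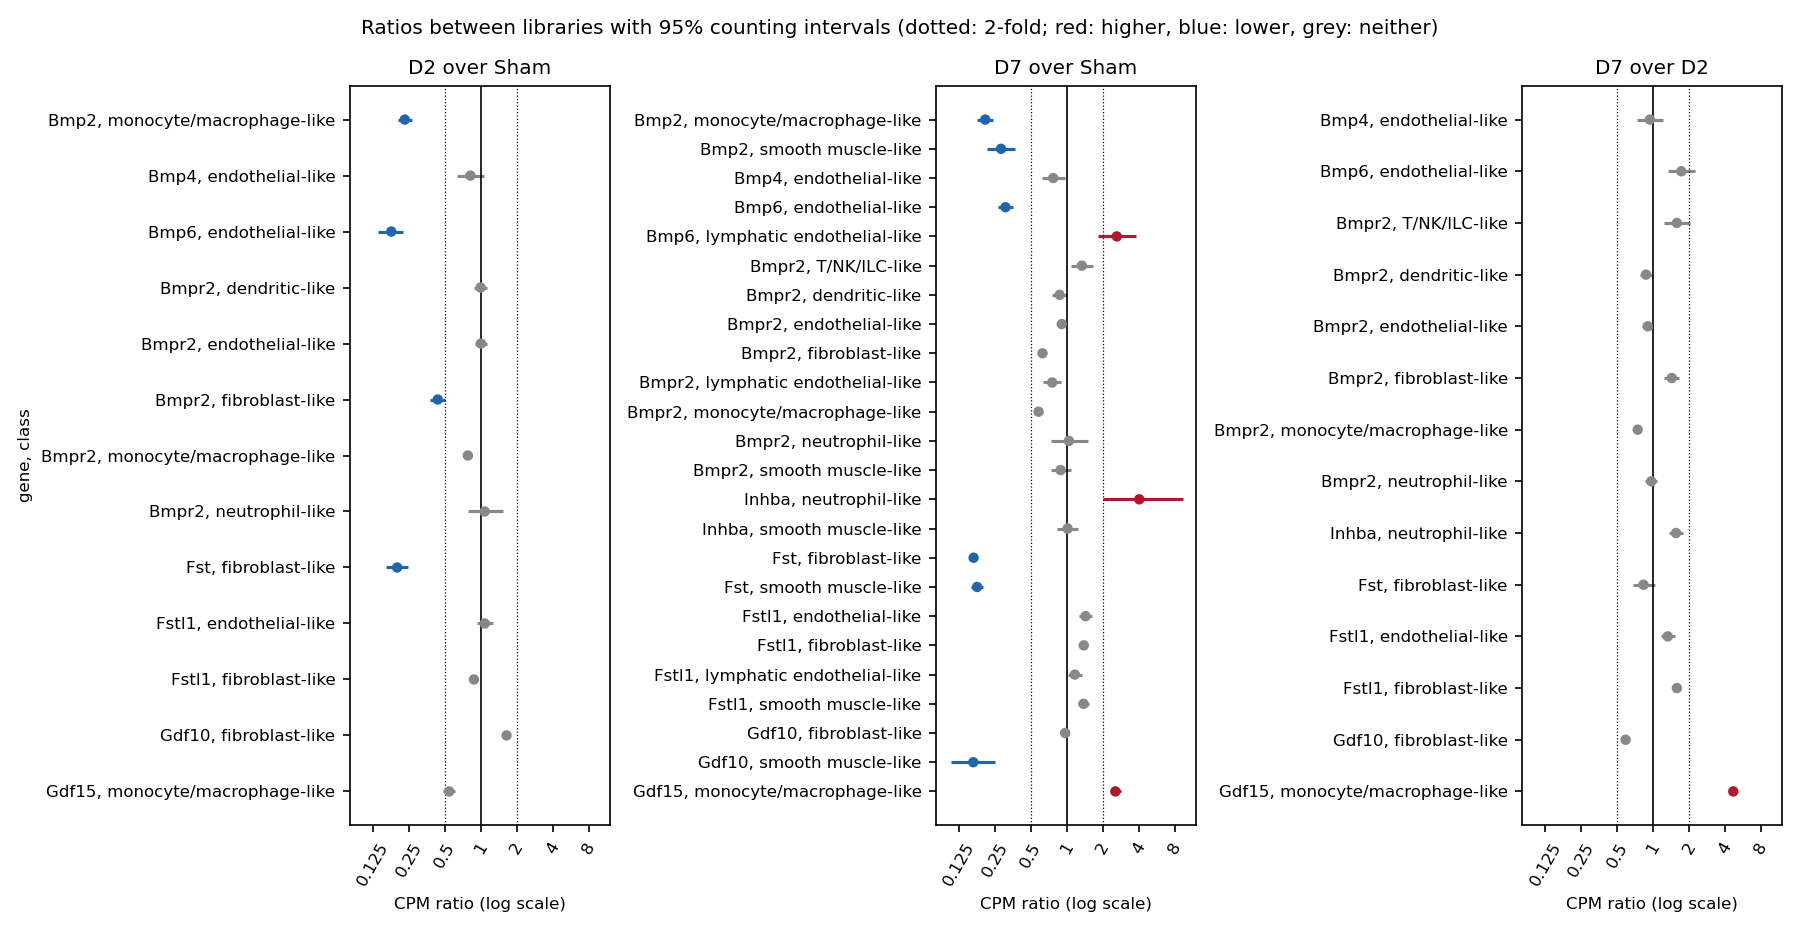
Ratio of CPM between libraries for each gene and class that passed the minimum level, with its 95% counting interval, on a log axis with dotted lines at 2-fold. Fst, Bmp2 and endothelial-like Bmp6 lie left of the lower line over Sham, while Gdf15 in monocyte/macrophage-like cells lies right of the upper line at D7 over both Sham and D2.

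Bmp6, a BMP that endothelial cells secrete and that in the mouse liver drives hepcidin expression, was lower in endothelial-like cells at both times after injury. It had 318 CPM in Sham (293 to 344, from 609 UMIs), 56.4 at D2 (44.7 to 70.3, from 79 UMIs) and 96.9 at D7 (85.5 to 109, from 263 UMIs). The Sham interval lay above both others. The ratio was 0.178 for D2 over Sham (0.139 to 0.225) and 0.305 for D7 over Sham (0.263 to 0.353), where 20.3% and 11.8% of the genes that passed in this class stood apart in either direction. With each cell thinned to 1000 UMIs, 21.5% of Sham, 11.8% of D2 and 8.92% of D7 endothelial-like cells had a Bmp6 UMI, and 0 of 279, 364 and 764 B-like cells had one, which allows shares of up to 1.08%, 0.824% and 0.393%. Thinning left out 50 Sham, 2 D2 and 18 D7 endothelial-like cells. Without it the shares were 36.1%, 29.9% and 21.6%, where median depths were 3458, 12815 and 5516.5 UMIs for endothelial-like and 4114.5, 4558 and 3501 UMIs for B-like cells. The summed level of the 12 endothelial markers, all of them detected, was also lower after injury (27112 CPM for Sham, 15884 for D2 and 15430.5 for D7), and its part in the Bmp6 result was not tested.

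In lymphatic endothelial-like cells the ratio ran the other way. Bmp6 had 86.1 CPM at D7 (68.2 to 107, from 79 UMIs in 139 cells) and 32.9 CPM in Sham (24.8 to 42.9, from 55 UMIs in 323 cells), and 9.97 CPM in only 30 cells at D2. The ratio of D7 over Sham was 2.61 (1.83 to 3.76), and 7.91% of the genes that passed in this class stood apart. A few cells carried much of it, with 27 of the 79 UMIs at D7 and 21 of the 55 in Sham in 3 cells each, and without them the levels were 59.0 CPM at D7 and 20.7 CPM in Sham. All 12 endothelial markers were detected in the class at 5071 CPM at D7 and 4087 CPM in Sham, and all 8 lymphatic markers at 22608 CPM and 27413 CPM. The part of these markers in the Bmp6 result was not tested.

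A second Bmp6 source was 1 cluster of fibroblast-like cells. Over the whole class Bmp6 had 32.9, 3.21 and 5.13 CPM in Sham, D2 and D7. In cluster 14, led by Pi16 and Sema3c, it had 77.0 CPM at D7 (65.1 to 90.5) and 62.4 CPM in Sham (56.8 to 68.4), whereas cluster 11, led by Inmt and Penk, had 2.06 CPM at D7 and 1.48 CPM in Sham. Cluster 0, led by Mfap4, Cthrc1 and Col1a1, held 2687 of the 2909 fibroblast-like cells at D7 and had 1.28 CPM of Bmp6 there. Perineurial-like cells, 59 in Sham, had 69.1 CPM from 7 UMIs (27.8 to 142).

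Bmp4, a BMP that acts on the endothelium and on smooth muscle, kept its endothelial level within the 2-fold range. Endothelial-like cells had 85.5 CPM in Sham (72.9 to 99.7), then 70.0 at D2 (56.8 to 85.3) and 65.6 at D7 (56.3 to 75.9). The intervals of Sham, D2 and D7 all overlapped. The ratio over Sham was 0.818 at D2 (0.630 to 1.06) and 0.767 at D7 (0.617 to 0.954). Lymphatic endothelial-like cells came next among the compared classes at D7, with 29.4 CPM at D7 from 27 UMIs and 14.97 CPM in Sham from 25 UMIs, both below the minimum level. In fibroblast-like cells Bmp4 had 17.6, 3.21 and 3.08 CPM in Sham, D2 and D7, all below it as well, although they held 49.9% of the Bmp4 UMIs of Sham.

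Bmp2, the BMP best known for inducing bone and calcification, was lower after injury in each of the classes that led it in Sham. Smooth muscle-like cells had 133 CPM in Sham (109 to 161), 41.5 in the 16 cells of D2 (21.4 to 72.4) and 37.3 at D7 (31.3 to 44.1), a ratio of 0.280 for D7 over Sham (0.215 to 0.364). Monocyte/macrophage-like cells had 58.1 CPM in Sham (52.4 to 64.3), then 13.4 at D2 (12.4 to 14.5) and 11.99 at D7 (10.7 to 13.4), with ratios over Sham of 0.231 at D2 (0.203 to 0.263) and 0.206 at D7 (0.177 to 0.241). Among genes that passed, 18.7% stood apart in smooth muscle-like cells at D7, and 13.6% at D2 and 16.8% at D7 in monocyte/macrophage-like cells. Fibroblast-like cells had 47.3 CPM in Sham (43.8 to 51.0), 3.74 at D2 and 4.28 at D7, which the minimum of 50 CPM kept out of the counts. Most Sham cells of this class lay in clusters 11 and 14 and most D2 and D7 cells in cluster 0. Within cluster 11 Bmp2 had 14.4 CPM at D7 and 22.6 CPM in Sham, a ratio of 0.639 (0.253 to 1.35), and within cluster 14 it had 22.0 CPM at D7 and 70.2 CPM in Sham, a ratio of 0.313 (0.223 to 0.429). In Sham the class intervals of smooth muscle-like, monocyte/macrophage-like and fibroblast-like cells did not overlap, and the order of the levels was smooth muscle, monocyte/macrophage, fibroblast.

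The Bmp2 level of monocyte/macrophage-like cells differed between clusters, and the clusters were unequally filled. Cluster 15, led by Cd209f, Retnla and Cd163, genes known from resident tissue macrophages, held 694 of the 961 such cells in Sham, 15 of 4228 at D2 and 104 of 2703 at D7. Within it Bmp2 had 67.4 CPM at D7 (49.5 to 89.6) and 76.1 CPM in Sham (68.4 to 84.4), a ratio of 0.885 (0.639 to 1.20). Cluster 2, led by Pf4, Ppbp and Ccl8, had 62.2 CPM in the 47 cells of Sham, 22.6 at D2 and 24.5 at D7, with ratios over Sham of 0.363 at D2 (0.224 to 0.628) and 0.394 at D7 (0.239 to 0.693). Clusters 8, 6 and 9 had 9.22, 1.80 and 4.82 CPM at D2. At D7 the level thus lay below Sham over the class and within cluster 2, while within cluster 15 the interval of the ratio included 1. In smooth muscle-like cells the thinned share with a Bmp2 UMI was 5.56% at D7 (3.21 to 8.87) and 11.4% in Sham (6.50 to 18.0), intervals that overlap, and 0 of 764 and 0 of 279 B-like cells had one. The unthinned shares were 26.7% at D7 and 32.0% in Sham, and 15 D7 and 18 Sham cells were too shallow to be thinned.

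Endothelial-like cells had little Bmp2, with 2.61 CPM in Sham, 14.995 at D2 and 18.1 at D7, all under the minimum. Of the 21 UMIs at D2, 20 lay in 3 cells.

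Inhba, which encodes the subunit of activin A, had its highest CPM in smooth muscle-like cells and a separate level in neutrophils. Smooth muscle-like cells had 152 CPM in Sham (126 to 182), 111 in the 16 cells of D2 (75.6 to 156, with 28 of 32 UMIs in 3 cells) and 154 at D7 (141 to 167). The ratio of D7 over Sham was 1.01 (0.830 to 1.24). Neutrophil-like cells had 12.5 CPM in Sham (5.38 to 24.5, from 8 UMIs in 149 cells), 32.3 at D2 (29.9 to 34.9, from 652 UMIs in 4512 cells) and 50.2 at D7 (44.8 to 56.1, from 310 UMIs in 1570 cells). The intervals of the 3 libraries did not overlap. The ratio of D7 over Sham was 4.03 (2.02 to 9.42), where 27.9% of the genes that passed in neutrophil-like cells stood apart, and that of D7 over D2 was 1.55 (1.35 to 1.78). Of the 14 monocyte/macrophage markers, 14 were detected in this class at D7 with 3604 CPM in sum and 13 in Sham with 2935 CPM, and their part in the result was not tested.

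Within neutrophil-like cells, cluster 4, led by Il23a, Il1a, Acod1 and Tnf, had 87.0 CPM of Inhba at D7 (73.7 to 102) and 32.5 CPM at D2 (28.5 to 36.8), a ratio of 2.68 (2.17 to 3.29), and held no Sham cell. Cluster 5, led by Retnlg and Slpi and holding 133 of the Sham cells, had 11.998 CPM in Sham (4.82 to 24.7), then 43.6 at D2 (37.5 to 50.4) and 38.5 at D7 (31.1 to 47.2). The intervals of D2 and D7 overlapped in cluster 5, and both lay above that of Sham. Thinned to 1000 UMIs, 1.35% of Sham neutrophil-like cells (0.164 to 4.80), 2.57% of those at D2 (2.13 to 3.08) and 3.41% of those at D7 (2.56 to 4.43) had an Inhba UMI, and 0 of 279, 364 and 764 B-like cells had one, at most 1.08%, 0.824% and 0.393%. The intervals of the 3 neutrophil shares overlapped. Their unthinned shares were 4.03%, 6.85% and 8.54%, at median depths of 3991, 3810.0 and 3348.5 UMIs, and thinning left out 1, 38 and 15 cells.

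At D7 fibroblast-like cells held the largest share of Inhba UMIs, 49.8%, against 24.2% in smooth muscle-like and 13.5% in neutrophil-like cells. Their level was 2.02 CPM in Sham, 6.41 at D2 and 30.5 at D7 (28.8 to 32.3), all below the minimum. The ratio of D7 over Sham was 15.1 (10.46 to 22.65), which the minimum kept out of the counts. Of the 1148 Inhba UMIs of this class at D7, 528 lay in 3 cells, and without those cells the level was 16.5 CPM. In monocyte/macrophage-like cells Inhba had 0.460, 5.13 and 10.4 CPM in Sham, D2 and D7, from 3, 248 and 254 UMIs, with 137 of the 248 at D2 in 3 cells. Endothelial-like cells had 13.6 CPM in Sham, with 22 of 26 UMIs in 3 cells, and 2.14 and 2.95 CPM at D2 and D7. Cluster 6, led by Chil3, Plac8 and Ly6c2, genes of classical monocytes in the mouse, had 0 UMIs in 153 Sham cells, then 5.17 CPM at D2 (3.74 to 6.96) and 21.9 at D7 (18.0 to 26.4).

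**Figure D3:**
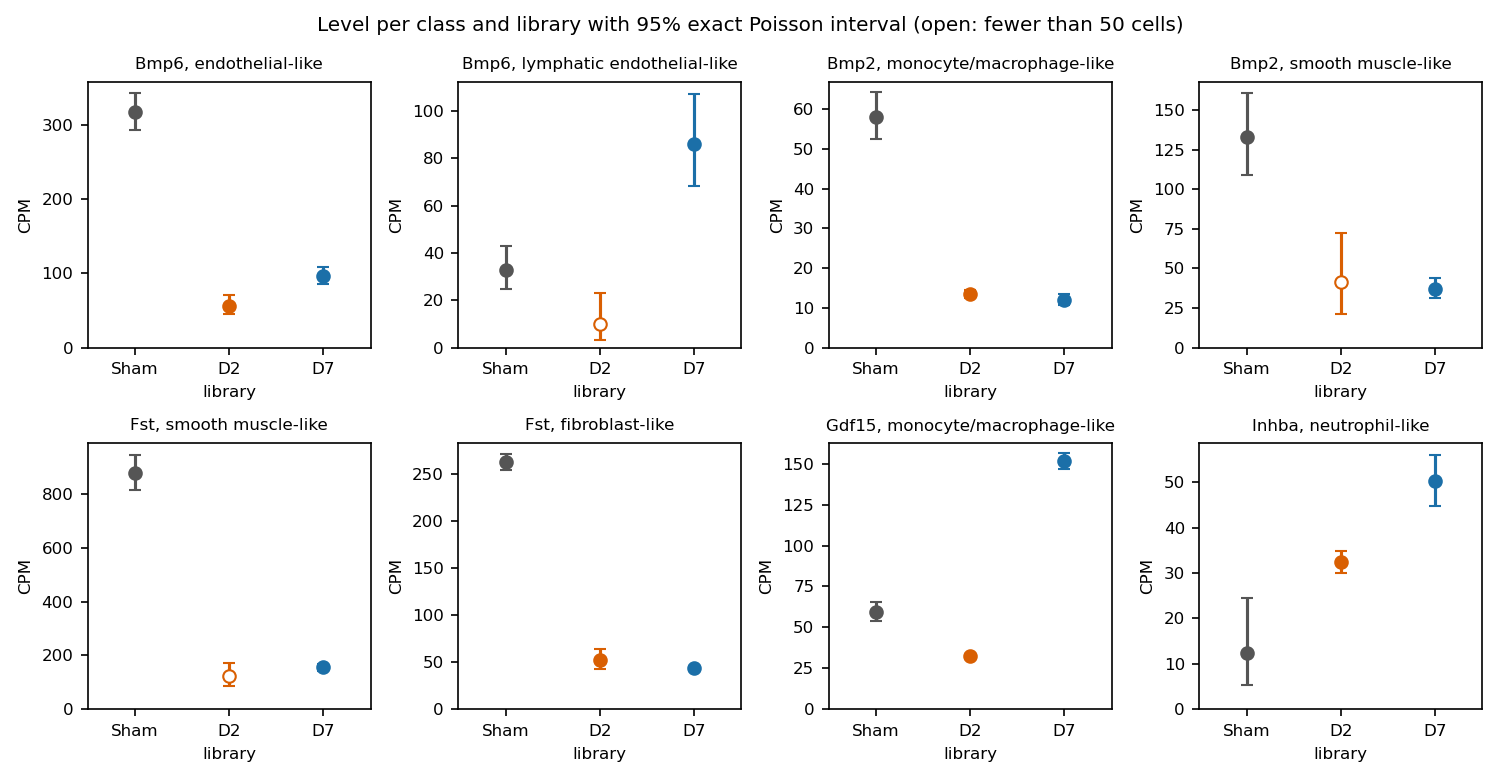
CPM of Bmp6, Bmp2, Fst, Gdf15 and Inhba in the classes where they stood apart, for Sham, D2 and D7, with 95% exact Poisson intervals and axes that start at 0. Open points mark classes with fewer than 50 cells. Fst, Bmp2 and endothelial-like Bmp6 are highest in Sham, and Gdf15 and Inhba in immune cells are highest at D7.

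Gdf15, a divergent GDF that cells release under stress and that acts in the brainstem through the receptor Gfral, was carried mainly by monocyte/macrophage-like cells. These had 59.5 CPM in Sham (53.7 to 65.7, from 388 UMIs), 32.3 at D2 (30.7 to 34.0, from 1561 UMIs) and 151 at D7 (147 to 156, from 3713 UMIs). The order was D7 above Sham above D2, with no overlap of the intervals. The ratio of D7 over Sham was 2.55 (2.29 to 2.83) and that of D7 over D2 was 4.69 (4.42 to 4.98), where 16.8% and 1.97% of the genes that passed in this class stood apart. That of D2 over Sham was 0.543 (0.486 to 0.608), short of 2-fold. Among thinned cells a Gdf15 UMI was found in 4.09% of Sham (2.91 to 5.57), 1.45% of D2 (1.11 to 1.86) and 6.34% of D7 cells (5.44 to 7.33), while 0 of 279, 0 of 364 and 2 of 764 B-like cells had one. The unthinned shares were 13.7%, 7.88% and 17.0%, with medians of 7014, 11201.5 and 7899 UMIs, and thinning left out 32, 30 and 36 cells.

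Of the 3713 UMIs at D7, 1808 lay in cluster 2 and 1692 in cluster 8. In cluster 2 Gdf15 had 54.9 CPM in Sham (30.7 to 90.6), then 65.2 at D2 (61.7 to 68.9) and 266 at D7 (254 to 278), so that D7 over D2 was 4.07 (3.79 to 4.38). In cluster 8, led by Mmp12, Il10 and Areg, it had 212 CPM at D7 (202 to 223) and 15.7 CPM at D2 (13.3 to 18.5). Gdf15 was itself among the 10 leading genes of cluster 8, so its level there is part of what defines the cluster. In cluster 15 it had 34.4 CPM at D7 (22.0 to 51.2) and 75.9 CPM in Sham (68.2 to 84.1), opposite to the class as a whole, and in the Ly6c2 cluster 6 it had 9.66 CPM at D7 and 9.87 CPM in Sham.

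In the other compared classes Gdf15 stayed below the minimum level of 50 CPM. Smooth muscle-like cells had 39.2 CPM at D7 (33.0 to 46.2) and 22.6 CPM in Sham (13.4 to 35.7), and fibroblast-like cells 4.74, 1.07 and 3.88 CPM in Sham, D2 and D7. Mast/basophil-like cells, not a compared class, had 52.0 CPM in 74 cells of Sham, from 16 UMIs of which 13 lay in 3 cells.

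**Figure D4:**
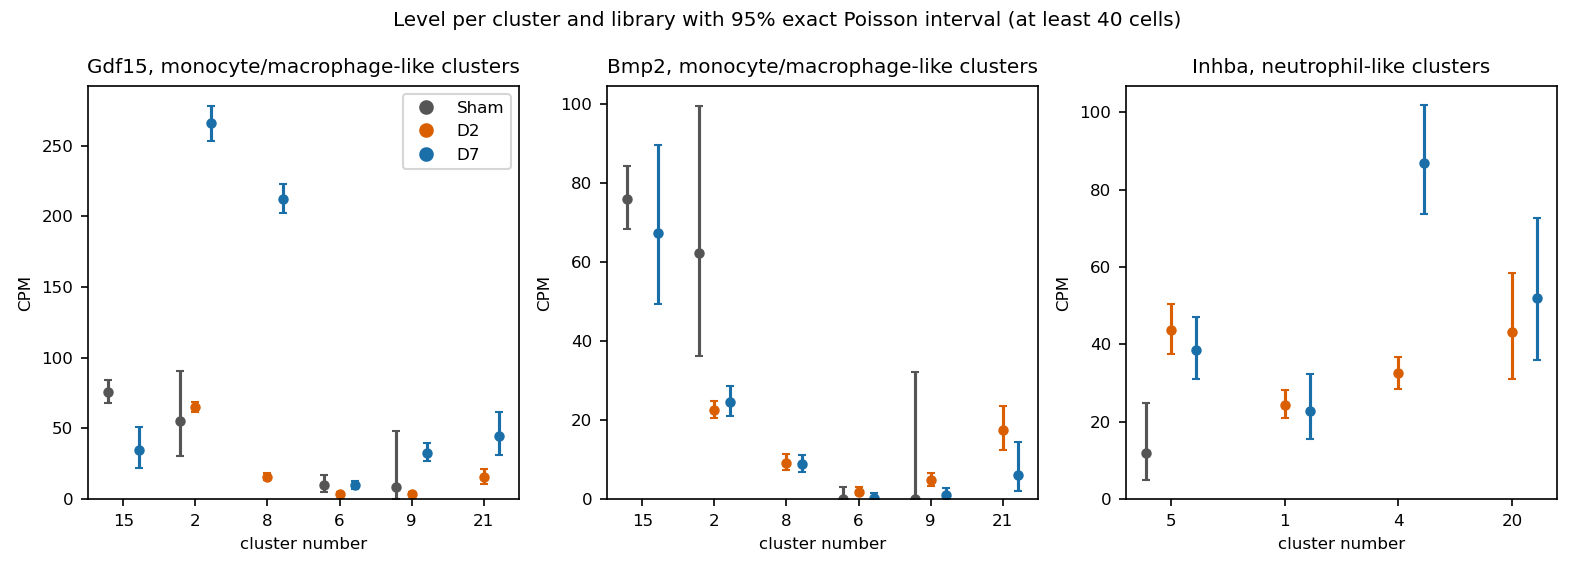
CPM of Gdf15 and Bmp2 in the monocyte/macrophage-like clusters and of Inhba in the neutrophil-like clusters, by library, with 95% exact Poisson intervals, for clusters with at least 40 cells of that library. Gdf15 at D7 is highest in clusters 2 and 8, Bmp2 is highest in cluster 15 in both Sham and D7, and Inhba at D7 is highest in neutrophil-like cluster 4.

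Gdf10, also called Bmp3b, a ligand grouped with Bmp3, was carried mainly by fibroblast-like cells. Fibroblast-like cells had 359 CPM in Sham (349 to 369), then 589.9 at D2 (556 to 626) and 346 at D7 (340.3 to 352), and D2 lay above both others. The ratio over Sham was 1.64 at D2 (1.54 to 1.75) and 0.965 at D7 (0.934 to 0.997), neither of them 2-fold. The level was uneven among clusters, at 644 CPM at D7 and 717 CPM in Sham in cluster 11, and at 65.0 CPM at D7 and 31.9 CPM in Sham in cluster 14. Cluster 0 had 575 CPM in 76 cells at D2 and 357 CPM in 2687 cells at D7, but held only 25 Sham cells. Different clusters thus made up the class before and after injury, and their part in the higher D2 level was not tested. Cluster 3, an unnamed shallow cluster with a median of 828.5 UMIs that held 1770 Sham cells and had all 12 fibroblast markers detected, had 1029 CPM in Sham (982 to 1077). In smooth muscle-like cells Gdf10 had 11.3 CPM at D7 (8.13 to 15.4) and 69.1 CPM in Sham (52.1 to 89.96), a ratio of 0.164 (0.107 to 0.24998), while the summed fibroblast markers of that class were 11185 CPM at D7 and 3979 CPM in Sham, all 12 detected in both. The part of these markers in the result was not tested. Perineurial-like cells had 513 CPM in Sham (384 to 673, from 52 UMIs), and the 40 Schwann-like cells of D7 had 82.9 CPM from 29 UMIs. Of these 18 lay in 3 cells, and without them the level was 36.2 CPM. The 50 Schwann-like cells of Sham had 0 Gdf10 UMIs. The summed fibroblast markers of the class were 22393 CPM at D7 and 3106 CPM in Sham, and their part in the Gdf10 values was not tested.

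Bmpr2, the type II receptor that binds BMPs and pairs with several type I receptors, was highest in endothelial-like cells among the named classes and broad elsewhere. Unnamed cluster 24 had 411 CPM at D7 and 425 CPM in Sham, in 59 and 76 cells. Endothelial-like cells had 392 CPM in Sham (365 to 421), then 393 at D2 (361 to 428) and 354 at D7 (332 to 378), and the 3 intervals overlapped. In lymphatic endothelial-like cells it had 193 CPM at D7 (166 to 224) and 257 CPM in Sham (233 to 282), and in smooth muscle-like cells 152 CPM at D7 (140 to 165) and 172 CPM in Sham (145 to 204). The smooth muscle intervals overlapped. The Sham levels of lymphatic endothelial-like, mast/basophil-like (253 CPM, 200.4 to 316) and fibroblast-like cells could not be ordered beyond their intervals.

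Fibroblast-like cells were the class in which Bmpr2 stood apart. They had 240.5 CPM in Sham (233 to 249), then 105 at D2 (90.6 to 120) and 149.8 at D7 (146 to 154), and the intervals did not overlap. The ratio over Sham was 0.435 at D2 (0.375 to 0.503), where 31.9% of the genes that passed stood apart, and 0.623 at D7 (0.597 to 0.650). At D2 76 of the 87 fibroblast-like cells lay in cluster 0, which held 25 of the Sham cells, so the clusters that made up the class differed. Within cluster 11, the larger one of Sham, the level was 185 CPM at D7 and 192 CPM in Sham, a ratio of 0.965 (0.771 to 1.20). Within cluster 14 it was 178 CPM at D7 and 287 CPM in Sham, a ratio of 0.620 (0.552 to 0.696). Monocyte/macrophage-like cells had 117, 91.1 and 67.5 CPM in Sham, D2 and D7, a ratio of D7 over Sham of 0.577 (0.529 to 0.629). Cluster 15 made up 72.2% of this class in Sham and 3.85% at D7. Within clusters 15, 2 and 9 the ratio of D7 over Sham was 0.985 (0.775 to 1.24), 1.15 (0.687 to 2.07) and 0.998 (0.517 to 2.21). Within cluster 6 it was 0.678 (0.557 to 0.828). The part of this make-up in the class ratio was not tested. Neutrophil-like cells had 57.6, 62.1 and 59.8 CPM, dendritic-like cells 72.0, 71.8 and 62.4 CPM, and B-like cells 6.69, 19.9 and 13.8 CPM.

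Fst, follistatin, which binds activins and several BMPs and masks their receptor sites, was lower after injury in fibroblast-like and smooth muscle-like cells, the classes with the largest shares of its UMIs. Smooth muscle-like cells had 879.7 CPM in Sham (816 to 947, from 700 UMIs), 124 in the 16 cells of D2 (87.1 to 172, with 29 of 36 UMIs in 3 cells) and 155 at D7 (143 to 169, from 562 UMIs). Fibroblast-like cells had 263 CPM in Sham (255 to 272), then 52.4 at D2 (42.5 to 63.8) and 43.4 at D7 (41.3 to 45.5). The intervals of D2 and D7 overlapped in both classes, and those of Sham lay above them. The ratio of D7 over Sham was 0.176 in smooth muscle-like cells (0.158 to 0.197) and 0.165 in fibroblast-like cells (0.155 to 0.175), and that of D2 over Sham was 0.199 in fibroblast-like cells (0.161 to 0.243). At D7 18.7% of the genes that passed in smooth muscle-like cells and 19.2% of those in fibroblast-like cells stood apart. Thinned to 1000 UMIs, 15.3% of D7 smooth muscle-like cells (11.3 to 19.96) and 45.5% of Sham ones (36.8 to 54.3) had an Fst UMI, and 0 of 764 and 0 of 279 B-like cells had one. Unthinned, the shares were 35.3% at D7 and 58.7% in Sham, at median depths of 8462 and 4423 UMIs.

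Different clusters made up the fibroblast-like class before and after injury, and Fst differed among them. Cluster 11 held 1282 of the 2037 Sham cells and had 270 CPM at D7 (225 to 320) and 415 CPM in Sham (400.1 to 431), a ratio of 0.649 (0.541 to 0.774). Cluster 14 had 114 CPM at D7 (99.1 to 130) and 131 CPM in Sham (123 to 140), a ratio of 0.866 (0.744 to 1.00). Cluster 0, which held 92.4% of the D7 fibroblast-like cells, had 36.4 CPM at D7 (34.5 to 38.5) and 51.2 CPM at D2 (41.3 to 62.8). Within clusters 11 and 14 the ratio thus lay nearer to 1 than over the class. Schwann-like cells had 64.4, 27.9 and 152 CPM in Sham, D2 and D7, from 10, 2 and 53 UMIs in 50, 7 and 40 cells. At D7 26 of the 53 UMIs lay in 3 cells, and without them the level was 92.6 CPM. The 12 fibroblast markers, all detected in both libraries, summed to 22393 CPM in these cells at D7 and 3106 CPM in Sham, and their part in the result was not tested. The 30 adipocyte-like cells, all from D7, had 78.7 CPM.

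The smooth muscle-like class was 1 cluster, led by Rgs5, a pericyte marker, with Acta2, Tagln and Myh11. Its 10 summed smooth muscle markers were 12616 CPM at D7 and 30536 CPM in Sham, and its 8 pericyte markers 4719 CPM at D7 and 2432 CPM in Sham, all of them detected in both libraries. With each library clustered on its own, D7 gave a smooth muscle-like cluster of 124 cells with 44.8 CPM of Fst, 14.4 of Bmp2 and 258 of Inhba, and a pericyte-like cluster of 181 cells with 285 CPM of Fst, 62.4 of Bmp2 and 37.9 of Inhba. In Sham that clustering gave 162 smooth muscle-like cells with 853 CPM of Fst, 128 of Bmp2 and 163 of Inhba. The part of these marker levels in the results was not tested. Both D7 groups had less Fst and Bmp2 than the Sham group, and they differed from each other in Inhba by more than their intervals.

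Fstl1, a secreted follistatin-like glycoprotein of mesenchymal cells, followed the fibroblasts. Fibroblast-like cells had 2009.6 CPM in Sham (1986 to 2033), then 1759.6 at D2 (1699.98 to 1821) and 2776 at D7 (2759 to 2793), and smooth muscle-like cells had 591 in Sham, 1202 in the 16 cells of D2 and 812 at D7. The ratio of D7 over Sham was 1.38 in fibroblast-like cells (1.36 to 1.40), 1.38 in smooth muscle-like cells (1.25 to 1.52), 1.43 in endothelial-like cells (1.26 to 1.63) and 1.16 in lymphatic endothelial-like cells (1.01 to 1.33). None reached 2-fold. The summed fibroblast markers were also higher at D7, with 11185 CPM at D7 and 3979 CPM in Sham in smooth muscle-like cells and 569 CPM at D7 and 275 CPM in Sham in endothelial-like cells, all 12 detected in both libraries. In lymphatic endothelial-like cells 11 were detected at D7 with 282 CPM and 12 in Sham with 191 CPM. The part of these markers in the ratios was not tested. B-like cells, which serve as background, had 5.86 CPM in Sham, 1.66 at D2 and 19.1 at D7, so the low values of immune classes at D7, such as 20.4 CPM in neutrophil-like cells, lay at that level.

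Grem1, gremlin, an antagonist of BMP2, BMP4 and BMP7 in development, was close to undetected. Its UMIs numbered 3 (Sham), 1 (D2) and 20 (D7), of which smooth muscle-like cells held 10 and fibroblast-like cells 9 at D7. No ratio could be read at this depth.

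Another 71 genes were taken in 6 lists, 5 of the pathway and 1 of stress and p53 genes, and all were measured. The lists, too, were chosen with earlier results of these data known. Among 17 other ligands (Bmp5, Bmp7, Gdf5, Mstn and others) 0 passed the minimum level in fibroblast-like, endothelial-like or monocyte/macrophage-like cells, and 1 passed in smooth muscle-like cells without standing apart. That 1 was Bmp5.

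The receptor list contained the gene with the highest ratio of these lists. Bmpr1b, a type I receptor for BMPs and GDFs, had 104 CPM at D2 and 7.59 CPM in Sham in fibroblast-like cells, a ratio of 13.7 (10.7 to 17.4), and with 76.1 CPM at D7 a ratio over Sham of 10.0 (8.27 to 12.2). Cluster 0 held 76 of the 87 fibroblast-like cells at D2, 2687 of 2909 at D7 and 25 of 2037 in Sham. The part of this make-up in the Bmpr1b ratios was not tested. In smooth muscle-like cells Bmpr1b had 53.6 CPM at D7 and 5.03 CPM in Sham, a ratio of 10.7 (4.10 to 39.5). In that Sham class 3 UMIs make 3.77 CPM, so the Sham level rests on few UMIs. The summed fibroblast markers of the class were also higher at D7, and their part was not tested. Of the 13 other receptors and coreceptors, 8 passed in fibroblast-like cells for D2 over Sham, 1 higher and 2 lower, in a comparison where 31.9% of all genes stood apart (median log2 ratio -0.43 against 0.05 over all genes). The lower were Rgmb, a BMP coreceptor, with 9.62 CPM at D2 and 53.2 CPM in Sham, and Tgfbr3, betaglycan, which presents inhibin and TGF-beta, with 234 CPM at D2 and 578 CPM in Sham. For D7 over Sham 7 passed in that class, 1 higher and 3 lower, where 19.2% of all genes stood apart (median -0.36 against -0.07), among them Acvr2a, an activin type II receptor, with 69.2 CPM at D7 and 167 CPM in Sham. In monocyte/macrophage-like cells Acvr2a was the only one of the list to pass for D2 over Sham, with 83.1 CPM at D2 and 40.6 CPM in Sham, a ratio of 2.05 (1.81 to 2.33). There 13.6% of all genes that passed stood apart. Cluster 15 made up 72.2% of the monocyte/macrophage-like class in Sham and 0.355% at D2, and the part of this make-up was not tested.

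Among 13 other extracellular inhibitors 5 passed in fibroblast-like cells at each time. For D2 over Sham 3 were lower, against 16.7% of all genes lower (median log2 ratio -1.01 against 0.05). For D7 over Sham none stood apart, against 19.2% of all genes, with a median of 0.32 against -0.07. Nbl1, a DAN-family BMP antagonist, had 212 CPM in Sham, 71.6 at D2 and 298 at D7, a ratio of D7 over D2 of 4.16 (3.51 to 4.97). Crim1, a transmembrane protein that binds BMPs, had 85.4 CPM in Sham, 11.2 at D2 and 18.4 at D7 in monocyte/macrophage-like cells, and 17.6 CPM at D2 and 65.1 CPM in Sham in fibroblast-like cells. Different clusters made up both classes before and after injury, and their part in these values was not tested. Chrdl1, a chordin-like BMP antagonist, had 45.0 CPM at D7 and 186 CPM in Sham in smooth muscle-like cells, a ratio of 0.242 (0.193 to 0.304). Clustered on its own, D7 gave 124 smooth muscle-like and 181 pericyte-like cells, and the part of this make-up in the Chrdl1 ratio was not tested.

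Of the 10 BMP target genes, 5 passed in smooth muscle-like cells, where 1 was higher and 3 were lower at D7 than in Sham, against 10.3% of all genes higher and 8.4% lower (median log2 ratio -1.45 against 0.09). Id2 and Id4, inhibitors of DNA binding induced by BMP receptors, had 71.2 and 203 CPM at D7, against 310.4 and 743 CPM in Sham. Id3, the highest of the 5, had 816 CPM at D7 and 849 CPM in Sham, a ratio of 0.960 (0.883 to 1.05). Smad7, an inhibitory Smad, had 101 CPM at D7 and 46.5 CPM in Sham, a ratio of 2.17 (1.55 to 3.14). Clustered on its own, D7 gave 124 smooth muscle-like and 181 pericyte-like cells, and the part of this make-up in the target genes was not tested. In endothelial-like cells 3 passed and 1 was lower at D7, again Smad7, with 69.3 CPM at D7 and 143 CPM in Sham, and at D2 none stood apart. Of all genes that passed in this class, 11.8% stood apart from Sham at D7 and 20.3% at D2. In monocyte/macrophage-like cells both that passed were higher at D7, against 7.38% of all genes higher (median log2 ratio 1.03 against -0.14). They were Id2 with 300.4 CPM at D7 and 149 CPM in Sham, and Id3 with 144 CPM at D7 and 68.9 CPM in Sham. Cluster 15 made up 72.2% of this class in Sham and 3.85% at D7, and the part of this make-up was not tested.

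Of the 8 Smad transducers and their ubiquitin ligases, 6 passed in endothelial-like cells at D7, and Smad1 was the only one to stand apart. There 11.8% of all genes that passed stood apart from Sham. Smad1, the BMP-activated transducer, had 254 CPM at D7 and 113 CPM in Sham in these cells, a ratio of 2.25 (1.93 to 2.63). In fibroblast-like cells Smurf2 and Smurf1, ligases that mark receptors and Smads for degradation, had 68.9 and 29.9 CPM at D2, against 270.4 and 77.2 CPM in Sham. The list of integrated stress response and p53 genes, pathways known to induce Gdf15, had 4 members that passed in monocyte/macrophage-like cells. Of these 1 stood apart from Sham at each time, where 13.6% (D2) and 16.8% (D7) of all genes that passed stood apart. Atf3, a stress-induced transcription factor, had 502 CPM at D2 and 491 CPM at D7, against 1010.0 CPM in Sham. Cluster 15 made up 72.2% of this class in Sham, 0.355% at D2 and 3.85% at D7, and the part of this make-up was not tested. Cdkn1a, the p53 target that encodes p21, did not stand apart there, with 410.2 CPM in Sham, 408 at D2 and 573 at D7, a ratio of 1.40 for D7 over Sham (1.34 to 1.46). In fibroblast-like cells Cdkn1a had 24.6 CPM at D2 and 56.1 CPM at D7, against 257 CPM in Sham.

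The genes most like each member were sought among 7795 genes by Pearson correlation of log2(CPM + 1) over 28 points, each a class in a library, which share libraries, depth and cell type and so are not independent. Bmp4 came closest to Clec14a (r = 0.95) and Fgd5 (r = 0.93), and Bmp6 to Galnt15 (r = 0.96) and Cdh13 (r = 0.95). Fst came closest to Ntrk2 and Aldh1a1 (r = 0.96 for both), Fstl1 to Serpinh1 and Fbn1 (r = 0.98 for both), and Gdf10 to Osr1 and Has1 (r = 0.94 for both). Bmpr2 came closest to Kif13a (r = 0.90) and Pld1 (r = 0.87), Inhba to Tmem38b (r = 0.81) and Acta2 (r = 0.78), Bmp2 to Myof (r = 0.78) and C1qtnf1 (r = 0.75), and Gdf15 to Ccl7 (r = 0.74) and Lamtor3 (r = 0.72). Grem1 was too sparse for such a comparison. Between members, the highest of the 45 correlations was that of Bmp4 with Bmp6 (r = 0.86).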

How the data were processed

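Per the file headers the deposited matrices hold UMI counts per gene and barcode made with Cell Ranger 7.1.0. Version 7.2.0 of that tool, Seurat 5.0.1 and mm10 appear in the submitters' processing notes. Per the labels, live singlets were sorted and sequenced with the Chromium 3′ v3 kit. Barcodes numbered 7757 in Sham, 11690.0 in D2 and 11574 in D7, and total UMIs 39756684, 98260210.0 and 100571340.0. Between 21 and 29 barcodes were shared by any pair of libraries.

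A cell needed 300 genes and 500 UMIs with a mitochondrial share of no more than 15%, and 306, 217 and 363 barcodes failed. Scrublet in scanpy 1.11.5, run per library with an expected rate of 8%, removed 76 (1.02%), 477 (4.16%) and 316 (2.82%) as doublets. Counts were scaled to 10000 per cell, log-transformed and reduced to 2000 variable genes and 30 components, with 15 neighbours and Leiden resolution 1 (leidenalg 0.10.2). Clusters were named from 193 markers of 20 classes. The score thresholds, and genes such as Cd163 and Stab1 used to read leading genes, were set after the clusters were seen. Clusters 3, 16, 24 and 30 stayed unnamed.

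The 10 genes and the 6 lists were chosen with earlier results of these data known. Named genes are all 10, in every class with at least 5% of a gene's UMIs in a library or at least 50 CPM, up to 2 genes per list and direction with the largest ratio, and the 2 most similar genes. With 1 library per group, batch and group cannot be told apart. No batch correction was made and no test was run. CPM is computed here from the deposited counts. Genes with 0 UMIs would be set at 3 counts for a ratio. The counting and calling code was tested on simulated data. Alternatives were the cell filter, doublets, resolution, separate clustering, a class per cell, means over cells, thresholds and thinning depth, and after seeing the data, cluster 3 counted as fibroblast. Promoters came from RefSeq on GRCm38.p6.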

Additional observations from a re-analysis of the deposited data

Results flagged for a closer look

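Bmp6 differed between the endothelial classes in the direction of its ratio. For D7 over Sham the ratio was 2.61 in lymphatic endothelial-like cells and 0.305 in endothelial-like cells, each from 1 library per group, and the difference between the classes was not tested.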

How the results depend on the processing

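No paired analysis was possible because each group was 1 library and no test was made. All 14 ratios that stood apart kept their direction under the 7 alternatives of cells and classes. Of all results checked under these, 21 moved and 30 stayed the same as means over cells. With the libraries clustered apart 19 moved and 32 stayed, and with cells classed singly 16 moved and 35 stayed. Resolution 2 moved 8, the strict cell filter 6, cluster 3 counted as fibroblast 6 and kept doublets 2. Bmpr2 in fibroblast-like cells for D2 over Sham, at 0.517 when cells were classed singly, and Gdf15 in monocyte/macrophage-like cells for D7 over Sham, at 1.99 as a mean over cells, fell short of 2-fold. Fst in smooth muscle-like cells had a ratio of (CPM + 1) of 0.0536 for D7 over Sham with the libraries clustered apart. That setting left the 181 pericyte-like cells out of the D7 group, so its cells are unlike those of the main class. The counts of pairs that stood apart were 4 (D2 over Sham), 9 (D7 over Sham) and 1 (D7 over D2). They were 21, 28 and 9 when cells were classed singly, over 12, 17 and 13 classes compared. With a minimum of 20 CPM and 10 UMIs they were 7, 14 and 3, and with no minimum 34, 28 and 17. At 1.5-fold the count for D7 over D2 was 6. These alternative counts have no share over all genes beside them. They therefore do not show how the 10 genes compare with all genes under those settings. Of 61 thinned shares 51 moved at 2000 UMIs and 61 without thinning. The limits are few cells at D2, 16 smooth muscle-like and 30 lymphatic endothelial-like, and 8 Inhba UMIs in Sham neutrophil-like cells.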
